A study of Mus musculus with 3 samples.

Results

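The genes described here encode the integrins, the transmembrane receptors that attach cells to matrix, and the cytoplasmic proteins of focal adhesions. They are 39 genes chosen by symbol from the 34591 rows of the deposited table: 13 alpha chains, 7 beta chains and 19 cytoplasmic proteins. All 39 had a row. The data are 3 poly(A) RNA sequencing libraries of the mouse mammary carcinoma cell line 4T1 with the genotype label WISP2 OE, in other words cells that over-expressed WISP2, a member of the CCN family of matrix-associated secreted proteins. Per the labels' protocols the cells were grown in RPMI medium with serum, and a packaged vector was introduced into the tumour cells, followed by puromycin selection, although that protocol names constructs of Wisp1. The promoter of the WISP2 construct, and whether the line was a clone or a pool, are not stated in those sources. The series' design text names controls with an empty vector, and they were not analysed here. Every value below is a level in the over-expressing cells or a difference between their libraries, and none is an effect of WISP2.

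The suffixes of the table's columns give the libraries their names, C1, C2 and C3. They have no order and held 17630755, 67028365 and 47577315 gene-assigned counts. No source says whether they came from separate cultures, so the spread between them may be technical. Wisp2 stood at 429, 384 and 454 CPM (counts per 1e6 library counts) in C1, C2 and C3. All 5 epithelial markers examined were at 1 CPM or more in every library, and no platelet, endothelial, fibroblast or muscle marker was. Of 10 leukocyte markers 2 reached that level, and the summed level of all 10 in C1, C2 and C3 was 19.8, 9.83 and 10.4 CPM, with Cd3e at 0 counts.

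An integrin is a dimer of an alpha and a beta chain, and the combination sets which ligand it binds: collagens, laminins, fibronectin and other proteins with an RGD sequence, or receptors on other cells. Talins and kindlins bind the cytoplasmic tail of the beta chain and switch the receptor to its active form. Vinculin, alpha-actinins, tensins and the complex of integrin-linked kinase (ILK), PINCH and parvin then join it to actin, while focal adhesion kinase, SRC, paxillin and p130Cas relay its signals.

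The adhesion genes were widely expressed, with 1 alpha chain and 1 beta chain far above the other chains. Of the 39 members 31 reached 1 CPM in every library, beside 33.8% of all rows of the table. These were 6 of 13 alpha chains, 6 of 7 beta chains and all 19 cytoplasmic proteins. At 100 CPM or more in every library were 16 members, beside 6.81% of all rows, and 13 of them were cytoplasmic proteins. Only Itga11 had no count in any library, beside 45.7% of all rows. Together the members summed to 6635, 6475 and 7043 CPM in C1, C2 and C3.

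Levels of different genes are compared per length, as CPM per kilobase of exon (RPKM), with exon lengths from GENCODE M21. On that scale Itga3, the laminin-binding alpha chain of epithelia, stood at 237 RPKM in C1, 227 in C2 and 249 in C3, a mean of 238 ± 11.3 RPKM (SD, n = 3) that exceeded 98.0% of detected genes (those at 1 CPM or more in every library). It supplied 82.0% ± 0.240 of the summed RPKM of the 13 alpha chains, a sum without Itga6 (35.2 RPKM), which is no member. The share of Itga3 was nearly the same in each library, at 82.1% in C1, 82.1% in C2 and 81.7% in C3.

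Itgav, the alpha chain of several RGD-binding integrins, came next among the 13 at 23.9 ± 0.305 RPKM. It was the steadiest of the expressed alpha chains, at 253, 257 and 259.9 CPM. The collagen-binding chain Itga2 (14.2 ± 2.58 RPKM) and the fibronectin-binding chain Itga5 (11.9 ± 0.726 RPKM) followed, and their ranges over the libraries overlapped, so these data do not order them. Itga7, a laminin-binding chain known from muscle, stood at 1.92 ± 0.229 RPKM. Itga1, the other widely expressed collagen-binding chain, reached 1 CPM in every library (mean 1.78 ± 0.123 CPM) but only 0.0959 ± 0.00661 RPKM, since its annotated exons are long.

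The other 7 alpha chains were below 1 CPM in at least 1 library. Itga2b, the platelet chain, averaged 0.131 RPKM, and Itga10, a collagen-binding chain of cartilage, averaged 0.0830 RPKM. In the order of the means the range of Itga1 overlapped with that of Itga10, that of Itga10 with Itga8, and that of Itga8 with Itgae. Itgae, the chain of intraepithelial lymphocytes, had 10 counts in all, Itga9 had 4 and Itga4, the leukocyte receptor chain for VCAM-1 and fibronectin, had 3. Itga11, a collagen-binding chain of fibroblasts, had 0 counts, so that levels of up to 0.170, 0.0448 and 0.0631 CPM in C1, C2 and C3 are possible. These limits, and the intervals given below, cover counting error only.

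Itgb1, the beta chain shared by most integrins, stood at 287, 286 and 316 RPKM in C1, C2 and C3. It supplied 87.2% ± 0.553 (SD, n = 3) of the summed RPKM of the 7 beta chains, a sum without Itgb4 (14.7 RPKM). Itgb5, a partner of the alpha-V chain, followed at 27.4 ± 2.71 RPKM. Itgb2, the beta chain of leukocyte integrins, was next among the 7 at 12.6 ± 0.976 RPKM, above 62.1% of the detected genes. Itgb7 (1.23 ± 0.381 RPKM), a lymphocyte chain, Itgb3 (1.11 ± 0.358 RPKM), the beta chain of platelets and osteoclasts, and Itgb6 (0.922 ± 0.0944 RPKM), an epithelial chain that binds latent TGF-beta, had overlapping ranges and were not separated. Itgb8, which also binds latent TGF-beta, was last, at 0.0205 ± 0.00593 RPKM from 33 counts.

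**Figure D1:**
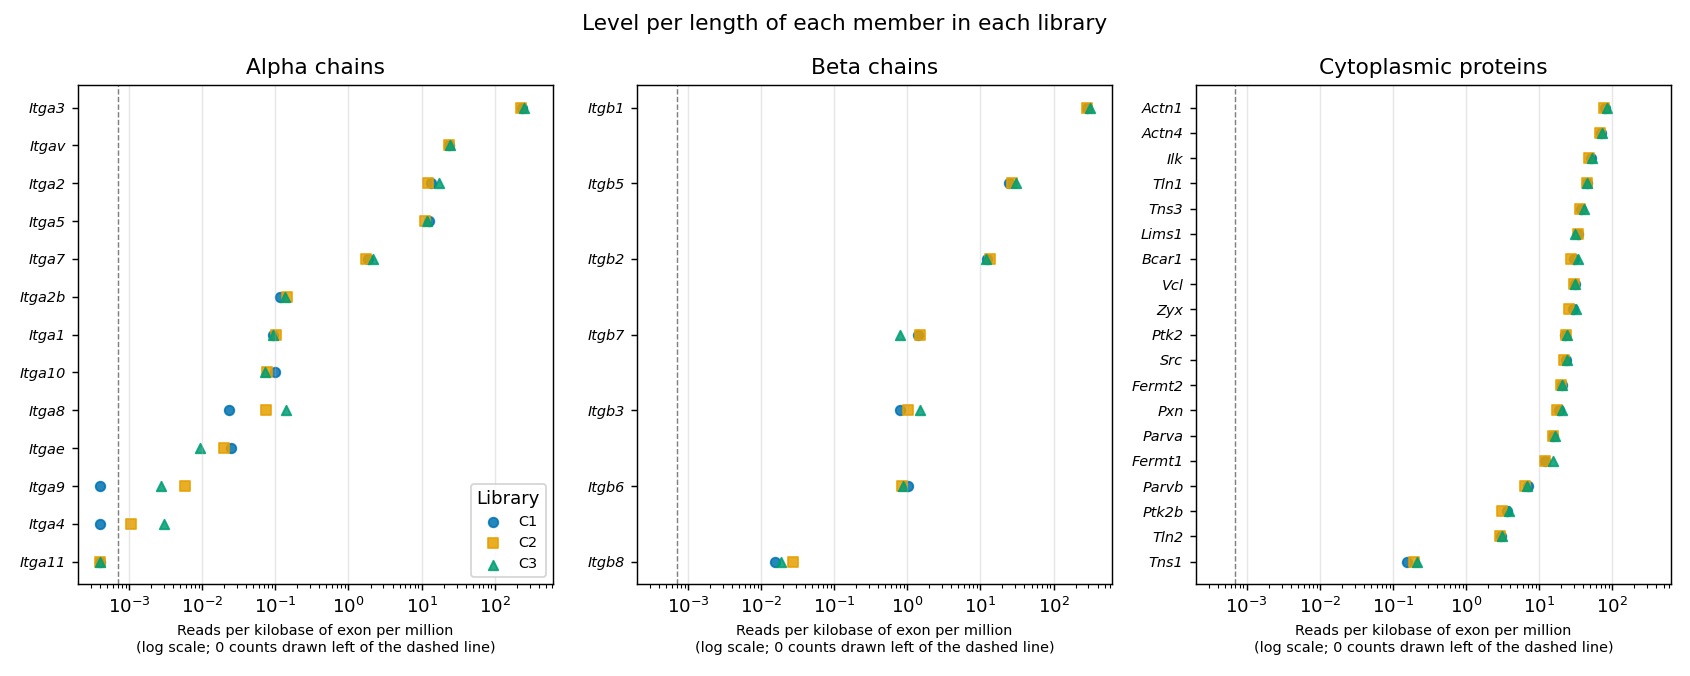
Level of each member in each library in RPKM (log axis), with members of a role in the order of their mean. Itga3 and Itgb1 lie far to the right of the other chains, the cytoplasmic proteins lie mostly between 10 and 100 RPKM, and points left of the dashed line are libraries with 0 counts.

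Because integrins are dimers, each chain was set beside the sum of its known partners, as transcript levels only. Itgb1 stood at 296 ± 17.0 RPKM and the 12 alpha chains that can pair with it, Itga6 included, at 325 ± 16.0 RPKM (SD, n = 3), a ratio of 0.910 within libraries. Of those 12 alpha chains 7 reached 1 CPM. Itga6, the laminin-binding partner of Itgb1 and of Itgb4 and no member of the 39, was the second alpha chain of these cells at 35.2 ± 1.53 RPKM, and Itgb4 stood at 14.7 ± 1.98 RPKM. Itgav, at 23.9 ± 0.305 RPKM, was far below the sum of its 5 beta partners, 325 ± 19.7 RPKM, nearly all of it Itgb1.

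A different picture held for the leukocyte beta chains, whose transcripts were present almost without those of their partners. Itgb2 stood at 12.4 RPKM in C1, 13.7 in C2 and 11.7 in C3, whereas Itgal, Itgam, Itgax and Itgad summed to 0.151, 0.0569 and 0.0676 RPKM. All 4 of these alpha chains were below 1 CPM, with 54 counts between them and none for Itgad. The ratio of Itgb2 to their sum was 151-fold. Itgb7 likewise stood at 1.41, 1.48 and 0.789 RPKM, whereas its partners Itga4 and Itgae together had 13 counts.

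The part of leukocytes in the level of Itgb2 was not tested. All 4 leukocyte markers that passed the filter on low counts were highest in C1, beside 30.9% of all genes tested. Of these, 3 were lowest in C2: the macrophage lysozyme Lyz2 at 9.42, 3.12 and 3.78 CPM, Emr1 at 1.76, 0.343 and 0.462 CPM, and Csf1r at 1.42, 0.642 and 0.778 CPM. Cd68, at 5.56, 5.15 and 4.27 CPM, was lowest in C3. Itgb2 was highest in C2 and, like Cd68, lowest in C3, at 37.9, 41.7 and 35.8 CPM. Ptprc, expressed by leukocytes in general, was below the filter and is named after its values were seen. It had 1, 8 and 13 counts and was highest in C3 per library total. In bulk RNA a small number of cells with much of a transcript and many cells with little of it cannot be told apart.

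**Figure D2:**
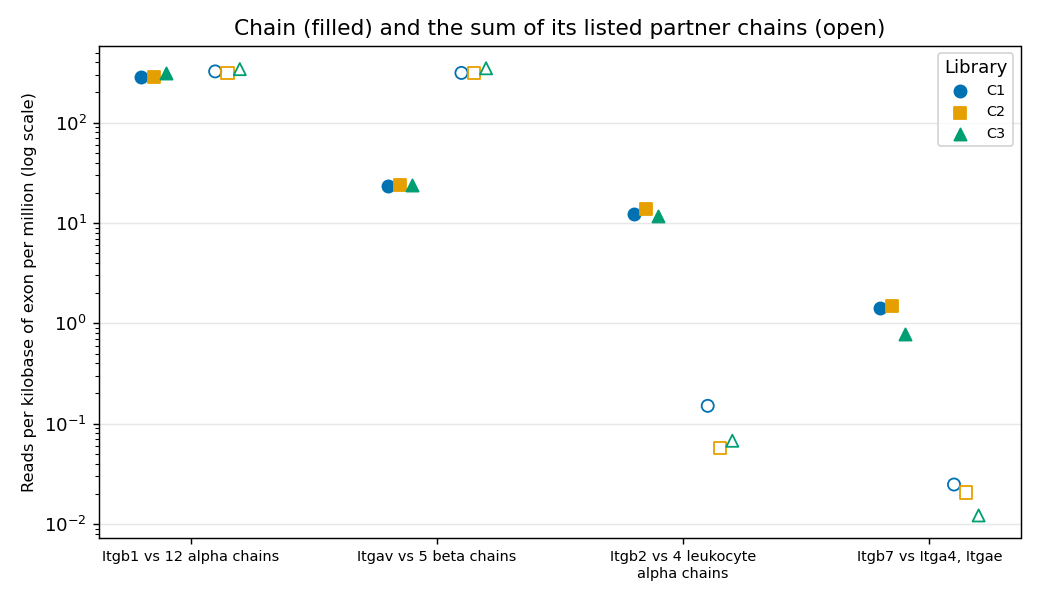
Level of 4 integrin chains (filled symbols) and the summed level of the partner chains listed under each (open symbols), in RPKM on a log axis, with 1 symbol per library. Itgb1 and its alpha partners lie at a similar height, whereas Itgb2 and Itgb7 lie far above their partners in all 3 libraries.

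Among the cytoplasmic proteins the actin linkers led. Actn1 (80.9 ± 4.03 RPKM) and Actn4 (70.4 ± 2.06 RPKM), the alpha-actinins that cross-link actin, were highest, and the range of each was separate from that of its neighbour. Ilk, the pseudokinase at the centre of the ILK complex, followed at 50.1 ± 2.25 RPKM. The integrin activator Tln1 stood at 44.8 ± 0.534 RPKM and the tensin Tns3 at 38.1 ± 2.67 RPKM. Lims1, which encodes PINCH (33.0 ± 1.53 RPKM), Bcar1, which encodes p130Cas (30.3 ± 3.31 RPKM), vinculin, Vcl (30.3 ± 0.690 RPKM), and zyxin, Zyx (28.6 ± 2.79 RPKM), formed a run in which the ranges of neighbours overlapped.

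The signalling kinases lay slightly lower. Ptk2, which encodes focal adhesion kinase, stood at 23.2 ± 0.533 RPKM and Src at 22.9 ± 1.07 RPKM, with overlapping ranges. The kindlin Fermt2 (20.2 ± 0.509 RPKM) overlapped with the scaffold paxillin, Pxn (18.8 ± 1.63 RPKM), and the parvin Parva (15.7 ± 0.627 RPKM) with the epithelial kindlin Fermt1 (13.2 ± 1.92 RPKM). Parvb (6.68 ± 0.271 RPKM), the focal adhesion kinase paralog Ptk2b (3.49 ± 0.410 RPKM), Tln2 (3.01 ± 0.0594 RPKM) and Tns1 (0.187 ± 0.0289 RPKM) closed the order. Here the ranges of Ptk2b and Tln2 overlapped.

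Some of these levels may hold reads of other genes, or lack reads of their own. Exons of 12 members overlap exons of another gene in GENCODE M21, and for 3 of them the overlap exceeds 10% of the member's exons: Ilk shares 76.7% with Taf10 on the opposite strand, Itga10 shares 33.5% with the predicted gene Gm42957 on the same strand, and Vcl shares 25.5% with Ap3m1 on the opposite strand. Taf10 and Ap3m1 have rows of their own in the deposited table, and Gm42957 has none. The libraries kept strand, per the labels' protocols, but the strand setting of the counting is not stated in those sources. The levels of these genes are therefore uncertain, and the direction of any error was not tested.

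Related genes were then compared in pairs, and in some pairs 1 gene was far above the other. Per length, Tns3 exceeded Tns1 by 7.67 ± 0.19 on the log2 scale (204-fold) and Itga2 exceeded Itga1 by 7.18 ± 0.32 (145-fold), in 3 of 3 libraries each. Tns3 was not the only abundant tensin, since Tns4 stood at 33.5 ± 4.69 RPKM. Tln1, the talin found in most tissues, exceeded Tln2 by 3.90 ± 0.05 (14.9-fold), with ratios of 14.8, 15.4 and 14.5 in C1, C2 and C3. Among the partners of the alpha-V chain Itgb5 exceeded Itgb3 by 4.67 ± 0.31 (25.4-fold) and Itgb6 exceeded Itgb8 by 5.42 ± 0.45 (42.9-fold). No p is given for these ratios, because with 3 libraries the smallest that a two-sided exact sign-flip test allows is p = 0.25.

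Other pairs were closer. Ptk2 exceeded Ptk2b by 2.74 ± 0.17 on the log2 scale (6.68-fold), Parva exceeded Parvb by 1.23 ± 0.08 (2.34-fold) and Itgav exceeded Itga5 by 1.00 ± 0.10 (2.00-fold). Actn4 was slightly below Actn1, at -0.20 ± 0.03. The kindlins were both expressed, with Fermt1 below Fermt2 by a log2 ratio of -0.63 ± 0.17, in 3 of 3 libraries. The fibronectin receptor chains stood furthest apart, with a log2 ratio of Itga5 to Itga4 of 12.34 ± 0.61 (5180-fold). Pooled over the libraries, Itga5 had 7614 counts and Itga4 had 3, a ratio of 2538 (95% counting interval 868 to 12309.7). Per length this pooled ratio was 7192 (2460 to 34880.5). Without the length correction the ratio of Tln1 to Tln2 was 7.94-fold, that of Itgav to Itga5 was 4.36-fold and that of Itga2 to Itga1 was 55.7-fold.

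**Figure D3:**
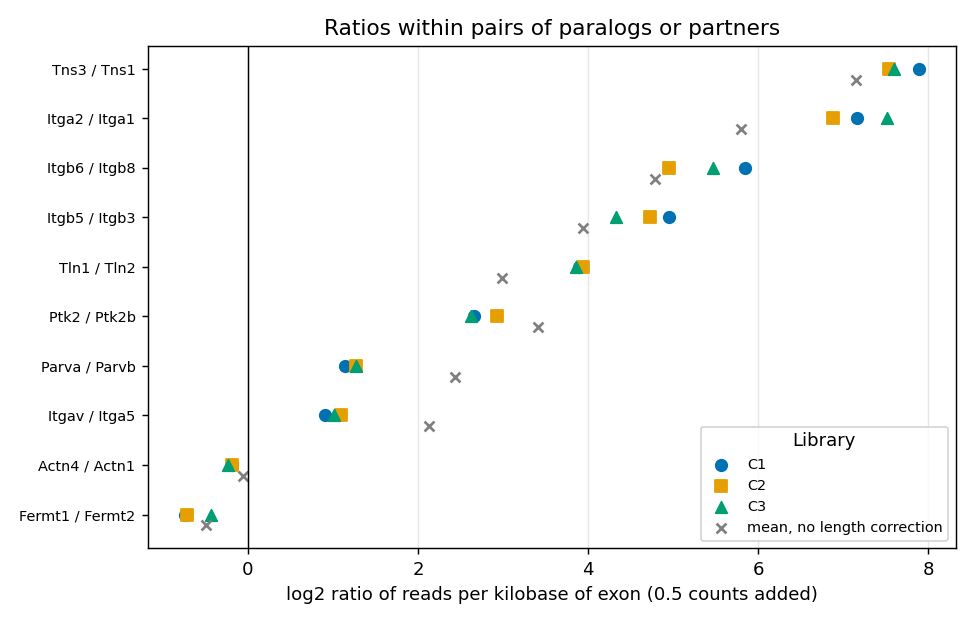
Log2 ratio per length within 10 pairs of paralogs or partners, with 1 symbol per library, and grey crosses for the mean ratio without length correction. Tensins and collagen-binding alpha chains lie furthest from 0, and the alpha-actinins and kindlins lie closest to it, just below 0 in every library.

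The DNA around the start sites of members above 1 CPM held more CG pairs in the median than that of members below it. RefSeq windows of 300 bases (250 before and 50 after a start, build GRCm38.p6) were matched by symbol for 30 of the 39 members, with 36 windows in all. The median number of CG dinucleotides was 24 in the 29 windows of members at 1 CPM or more and 10 in the 7 windows of members below it. Those 7 were all of integrin chains, whereas the 29 also held the windows of cytoplasmic proteins, so role and level are mixed in this comparison. Genes of the whole table showed the same order, with medians of 21 and 5, so the difference is not particular to adhesion genes. Single chains did not all follow it: the windows of Itga8 and Itga11, both below 1 CPM, held 23 and 16 CG, against 13 in Itga2, 13 in Itga5 and 12 in Itga1. As examples, the 250 bases before the start are printed for the leading beta and alpha chains with a single listed start, Itgb1 (chr8:128685404-128685653, plus strand, 21 CG) and Itgav (chr2:83724147-83724396, plus strand, 18 CG), and for the alpha chains with the lowest levels among those with a single start, Itga4 (chr2:79255176-79255425, plus strand, 6 CG) and Itga11 (chr9:62677605-62677854, plus strand, 12 CG). Capitals mark each CG, 5′ to 3′.
Itgb1: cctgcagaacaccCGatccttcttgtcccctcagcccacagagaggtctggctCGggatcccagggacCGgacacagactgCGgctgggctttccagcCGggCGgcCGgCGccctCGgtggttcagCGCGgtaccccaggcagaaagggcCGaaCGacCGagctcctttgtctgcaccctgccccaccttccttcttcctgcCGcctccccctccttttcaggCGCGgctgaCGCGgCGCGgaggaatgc
Itgav: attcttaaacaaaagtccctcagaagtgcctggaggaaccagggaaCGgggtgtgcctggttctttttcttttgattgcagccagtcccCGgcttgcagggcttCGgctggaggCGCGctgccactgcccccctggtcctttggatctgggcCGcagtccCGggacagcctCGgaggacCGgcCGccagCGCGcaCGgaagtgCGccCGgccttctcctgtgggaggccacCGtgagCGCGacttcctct
Itga4: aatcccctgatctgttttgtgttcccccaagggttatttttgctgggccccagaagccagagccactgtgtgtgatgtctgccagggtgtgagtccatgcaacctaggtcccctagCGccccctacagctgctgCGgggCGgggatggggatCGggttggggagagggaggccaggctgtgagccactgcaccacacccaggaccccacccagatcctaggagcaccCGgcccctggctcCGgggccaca
Itga11: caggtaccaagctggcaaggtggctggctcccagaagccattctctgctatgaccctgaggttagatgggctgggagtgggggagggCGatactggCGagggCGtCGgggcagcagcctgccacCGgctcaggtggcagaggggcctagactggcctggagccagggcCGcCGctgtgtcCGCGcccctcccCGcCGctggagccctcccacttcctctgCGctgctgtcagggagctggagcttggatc
Itgb1 and Itgav carried more CG pairs here than Itga4 and Itga11, although the G and C content of Itga4 (64.0%) and Itga11 (68.4%) was close to that of Itgav (64.4%) and Itgb1 (68.0%).

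Motifs were searched on both strands of the same windows. GGGCGG, the letters of the SP1 site, stood in 22 of 36 member windows (61.1%), beside 35.7% of all 32851 windows and 64.8% of those of genes at 1 CPM or more. The CArG box, bound by serum response factor, stood in 3 member windows (8.33%), beside 1.63% of all windows and 1.22% of those of genes at 1 CPM or more. These were windows of Vcl, Fermt2 and Itgb6. For the other motifs the same shares follow in that order. TGANTCA, the AP-1 site, stood in 4 (11.1%, beside 7.81% and 5.04%), and GGAATG, the TEAD site, in 4 (11.1%, beside 14.7% and 11.9%). TATAAA stood in 1 (2.78%, beside 13.6% and 6.56%). The window of Vcl (chr14:20929148-20929397, plus strand) is shown with its CArG box in capitals, which begins 227 bases before the start.
Vcl: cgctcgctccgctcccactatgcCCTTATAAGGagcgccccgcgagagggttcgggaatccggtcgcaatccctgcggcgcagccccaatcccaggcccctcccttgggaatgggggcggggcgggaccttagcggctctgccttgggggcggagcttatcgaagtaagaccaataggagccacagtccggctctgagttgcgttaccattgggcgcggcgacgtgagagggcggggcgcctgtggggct
A match is a description of the letters and not of a bound site.

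The libraries differed from one another for most expressed members, by small amounts and largely in the same direction. Of the 33 members that passed the filter on low counts, 24 varied between the libraries by more than counting noise (Poisson dispersion test, adjusted p under 0.05 over 13026 genes), beside 39.3% of all genes tested. They were 4 of 8 alpha chains, 5 of 6 beta chains and 15 of 19 cytoplasmic proteins. This test finds more in abundant genes. Among genes at a mean of 100 CPM or more it called 16 of 18 members (88.9%) beside 72.3% of all genes, and from 10 to 100 CPM it called 6 of 8 members (75.0%) beside 40.9%. The median ratio of the highest to the lowest library was 1.13 over the members tested and 1.11 over all genes tested.

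Most members were highest in C3. Of the 33 tested, 22 were highest in C3 (beside 34.0% of all genes tested), 5 in C2 (beside 35.1%) and 6 in C1 (beside 30.9%). Of the 24 called, 19 were highest in C3, beside 40.3% of all genes called by this test, and 17 were lowest in C2, beside 39.6%. The count of 19 was the same with TMM scaling and with DESeq2 size factors. Those factors lay between 0.9975 and 1.002, so they left little room for a change. By role these were 3 alpha chains, 3 beta chains and 13 cytoplasmic proteins. The median deviation of the members tested from their own mean was 0.06 on the log2 scale in C3 and -0.06 in C2, where all genes tested had medians of -0.003 and 0.003. Without C3 the test called 9 members, beside 12.9% of all genes tested, and without C2 it called 15, beside 13.8%. Both of these comparisons hold C1, the shallowest library, and the part of depth in these counts was not tested.

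The direction was also read in each pair of libraries. Between C2 and C3 the test called 23 members, beside 36.8% of all genes tested, and 20 of them (87.0%) were higher in C3, beside 51.4% of all genes called. Between C1 and C3 it called 15 members, and 13 (86.7%) were higher in C3, beside 53.4%. Between C1 and C2 it called 9 members, of which 1 (11.1%) was higher in C2, beside 46.9%. The members thus tended to be highest in C3, intermediate in C1 and lowest in C2. In the test of all 3 libraries, 4 of 4 alpha chains called and 12 of 15 cytoplasmic proteins were lowest in C2, beside 39.6% of all genes called. Of the 5 beta chains called, 1 was lowest in C2 (beside 39.6%), 2 in C1 and 2 in C3. Highest in C3 were 3 of these 5, beside 40.3% of all genes called. Counts this small do not show whether the roles differ. C2 was also the deepest library and C1 the shallowest, and the part of depth in the order of the libraries was not tested.

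Itga2 was highest in C3, at 94.7, 86.9 and 122 CPM in C1, C2 and C3. Fermt1 stood at 68.9, 68.5 and 87.6 CPM, so that C1 and C2 were alike and C3 apart. Itgb3 stood at 4.71 CPM (95% interval 3.75 to 5.84) in C1, 6.03 CPM (5.45 to 6.64) in C2 and 8.85 CPM (8.02 to 9.74) in C3. C3 was the highest library for each of these 3 genes, the members that came closest to passing the second test given below. Among the cytoplasmic scaffolds Bcar1 stood at 137, 123 and 153 CPM, and zyxin, Zyx, at 155, 139 and 169 CPM. In both of these C2 was lowest and C1 lay between the other libraries.

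Itgb7 went the other way, with 3.91 CPM (95% interval 3.05 to 4.95) in C1, 4.10 CPM (3.63 to 4.62) in C2 and 2.19 CPM (1.79 to 2.65) in C3. Lims1 was also lowest in C3, at 166, 165 and 153 CPM, and so was Itgb2. Itga8, an alpha chain that binds nephronectin, had 3, 37 and 49 counts and stood at 0.170 CPM (0.0351 to 0.497), 0.552 CPM (0.389 to 0.761) and 1.03 CPM (0.762 to 1.36), which is a ratio of 6.05 between C3 and C1. It was below the filter. When all genes with a count were tested, it passed the Poisson dispersion test (adjusted p = 0.00127), beside 26.5% of all genes, and not the edgeR quasi-likelihood F test (adjusted p = 0.131).

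A second test asked whether a member's spread stood out among genes of similar level. In the edgeR quasi-likelihood F test 0 of 33 members passed an adjusted p of 0.05, beside 0.0691% of all genes tested, and 9 had an unadjusted p under 0.05, beside 5.15%. Itga2 came closest, with an adjusted p of 0.195 in that edgeR test, followed by Fermt1 at 0.454 and Itgb3 at 0.462. When all genes with a count were tested, these 3 passed, beside 0.910% of the 18797 genes. Without C1, Itga2 alone of the members passed, beside 0.390% of the genes tested. The steadiest expressed members were Tln1, at 439.6, 444 and 433 CPM, Itgav and Tln2, whose highest library exceeded the lowest by 2.40%, 2.58% and 3.93%. None of these 3 passed the Poisson dispersion test (adjusted p = 0.168, 0.327 and 0.362).

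**Figure D4:**
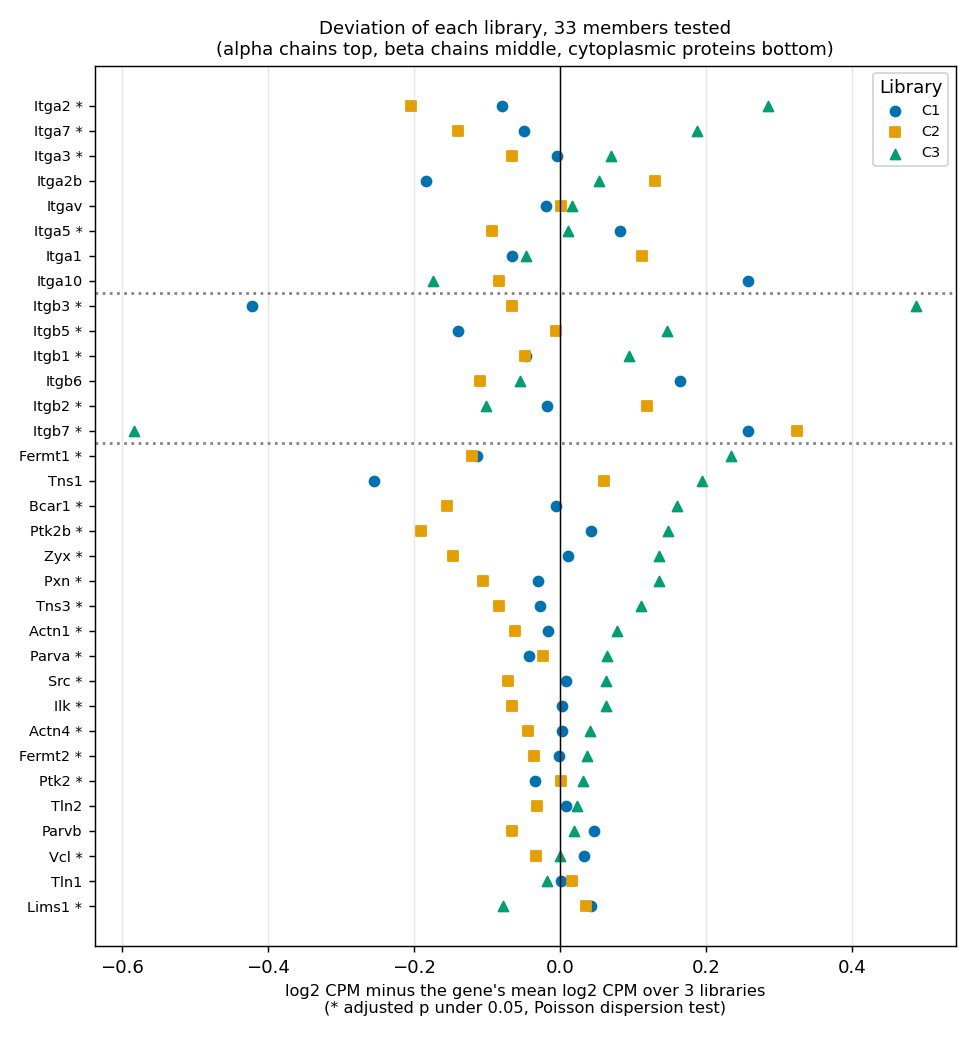
Log2 CPM minus the mean log2 CPM of the gene, by library, for the 33 members tested, with alpha chains at the top, beta chains in the middle and cytoplasmic proteins at the bottom, and an asterisk where the Poisson dispersion test was passed. C3 (green triangles) lies rightmost for 22 of the 33 members and C2 (orange squares) leftmost for 20, while Itgb7 shows the opposite pattern for C3.

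Other genes of the pathway were set beside the members. Of 31 further adaptors and regulators 30 reached 1 CPM in every library, beside 33.8% of all rows of the table. The 4 with the most counts, a choice that does not allow for length, were the actin cross-linker Flna and the small GTPases Rhoa, Rac1 and Cdc42. Per length Flna stood at 192 ± 2.47 RPKM, Cdc42 at 132 ± 1.38, Rac1 at 107 ± 1.20 and Rhoa at 66.1 ± 0.993 RPKM. Of the 30 tested, 14 passed the Poisson dispersion test, beside 39.3% of all genes tested. Highest in C3 were 8 of these 14, beside 40.3% of all genes called. Of 15 paralogs of the cytoplasmic members 7 reached 1 CPM in every library, beside the same 33.8%. The 4 with the most counts were the zyxin relatives Trip6 (35.2 ± 1.47 RPKM) and Lpp (4.23 ± 0.348 RPKM), the epithelial tensin Tns4 and the SRC family kinase Yes1 (12.4 ± 0.575 RPKM), while the muscle alpha-actinin Actn2 had 0 counts. Of the 9 tested 6 passed that test, 3 of them highest in C3, beside the same shares of all genes.

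Integrin ligands made by the same cells were also examined. Of 15 ligand genes 11 reached 1 CPM in every library, beside 33.8% of all rows of the table. The 4 with the most counts were thrombospondin 1, Thbs1 (178 ± 12.9 RPKM), fibronectin, Fn1 (148 ± 16.1 RPKM), Cdh1, the ligand of the alpha-E chain (97.0 ± 3.74 RPKM), and the laminin chain Lamb1 (47.5 ± 2.41 RPKM). Per length osteopontin, Spp1, named after its values were seen, lay among them at 135 ± 12.3 RPKM. Vitronectin, Vtn, a ligand of the alpha-V chain, had 0 counts. Among the 12 ligands tested 9 were highest in C3, beside 34.0% of all genes tested. They included Fn1 at 1594, 1661 and 1948 CPM and Thbs1 at 992, 1101 and 1144 CPM. Of the 5 epithelial markers 4 were highest in C3, beside the same 34.0%. So were the laminin receptor chains Itga6 (323, 302 and 328 CPM) and Itgb4 (94.2, 95.4 and 119 CPM). Wisp2 was likewise highest in C3 and lowest in C2. The part of any of these in the order of the libraries for the members was not tested.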

How the data were processed

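The authors deposited 1 table of whole-number read counts per gene symbol and library, not normalized, as its values show. The submitters' processing notes name CASAVA 1.7, BWA, STAR, HTSeq and mm9, with no role or order; annotation, strand setting and treatment of multi-mapping reads were not given in the sources used here. Column names match no sample title, so columns were assigned to the single group as a whole.

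CPM was computed from column totals (1 count was worth 0.0567, 0.0149 and 0.0210 CPM in C1, C2 and C3), and RPKM from the union of GENCODE M21 exons, which gave a length for all 39 members. That annotation is on another build and supplied lengths and overlaps only. Intervals are exact Clopper-Pearson, and the limit at 0 is 3 counts. Ratios were taken within libraries with 0.5 counts added. Spread was tested with edgeR 4.0.16 (R 4.3.3; TMM, filterByExpr, intercept only): a chi-square test of Poisson dispersion, on 2 degrees of freedom, and an F test of the quasi-likelihood dispersion against its trend, both with Benjamini-Hochberg adjustment over 13026 genes at 0.05. Both were also run on simulated data, with results that are not given or relied on here. Alternatives covered scaling (DESeq2 1.42.0 size factors), filters, gene length and leaving out libraries.

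The rule for the members reads only gene symbols, but the members, lists, pairs and tests were chosen with earlier results of these data known. All members may be named; of other lists the 4 highest members, up to 3 at 0 counts, and all other integrin chains are, with exceptions stated. The 2 alternatives on the count of members highest in C3 were added after seeing the data.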

Additional observations from a re-analysis of the deposited data

How the results depend on the processing

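Between 30 and 32 members were detected under every threshold, scaling and left-out library tried. The count of members that varied beyond counting noise, 24, was 23 or 24 under other scalings and with no filter. With a library left out it was 9 (without C3, beside 12.9% of all genes tested) to 23 (without C1, beside 36.8%). Of the members called, 20 were higher in C3 without C1 and 13 without C2 (19 highest in C3 with all libraries). In the edgeR F test the count of 0 became 3 with all genes with a count tested (Itga2, Itgb3 and Fermt1), and was 0 to 1 with a library left out. With the longest transcript as length the mean log2 ratios became 6.43 for Itga2 to Itga1, 1.45 for Itgav to Itga5, 3.52 for Tln1 to Tln2, 3.20 for Ptk2 to Ptk2b, 1.80 for Parva to Parvb, -1.16 for Fermt1 to Fermt2 and -0.11 for Actn4 to Actn1, and the share of Itga3 80.3%. With no length correction they became 5.80 (Itga2 to Itga1), 2.13 (Itgav to Itga5), 10.84 (Itga5 to Itga4, from 12.34), 3.94 (Itgb5 to Itgb3), 4.78 (Itgb6 to Itgb8), 2.99 (Tln1 to Tln2), 3.41 (Ptk2 to Ptk2b), 2.43 (Parva to Parvb), 7.15 (Tns3 to Tns1) and -0.053 (Actn4 to Actn1), with shares of 75.7% for Itga3 and 88.8% for Itgb1. No ratio changed its direction. No paired analysis was possible because all libraries belong to 1 group. Depth limits the 8 members below 1 CPM, above all in C1, where 3 counts are 0.170 CPM.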
